A study of Mus musculus with 4 samples.

Results

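The 10 genes described here encode the classical and non-classical antigen-presenting proteins of the mouse major histocompatibility complex (MHC) and their closest partners. They were chosen by symbol, with earlier results of these data known. They are 10 of the 23991 gene symbols listed in each library. The 6 genes of the class I pathway are H2-K1, H2-D1, H2-T22, H2-T23, B2m and Tap1, and the 4 genes of the class II pathway are H2-Aa, H2-Ab1, H2-Eb1 and Cd74. RNA came from the mouse amygdala, a forebrain region that processes fear and other emotional signals. All animals were NpyCre/+;TRAPlox/lox: Cre recombinase is driven by the gene of neuropeptide Y, and TRAP (translating ribosome affinity purification) pulls down ribosomes that carry a tag in cells where Cre has acted. The immunoprecipitate (IP) is the RNA bound to those ribosomes, and the input is the total RNA of the same tissue. There were 2 IP and 2 input libraries, each a pool of RNA from 3 mice. Per the design text, IP and input of 1 number came from the same pool, and the main fit did not pair them. The p-values below rest on the spread between 2 pools per group, moderated towards that of all tested genes. Input and IP share 1 genotype, and an IP from mice without Cre was not analysed here. The labels used here give neither strain nor age. The title of IP replicate 2 was followed, although its source description gives replicate 1.

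Class I molecules are made by nearly all nucleated cells. A heavy chain pairs with beta-2-microglobulin and displays peptides from the cytosol, which the TAP transporter brings into the endoplasmic reticulum, to CD8 T cells. Class II molecules are made mainly by dendritic cells, macrophages and B cells, where an alpha and a beta chain first bind the invariant chain CD74 and then display peptides from endosomes to CD4 T cells. In the brain, microglia and macrophages at its borders are the main class II-bearing cells, while class I heavy chains are also made by neurons and have been linked to synapse remodelling in mice.

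Markers of the targeted cells were higher in the IP. Npy itself stood at 1240 and 1167 FPKM (fragments per kilobase of transcript and 1000000 mapped fragments) in the IP libraries, against 105.4 and 99.2 FPKM in the input libraries. All 7 listed markers of Npy and GABAergic neurons were higher in the IP by the test described below, and 3 of 5 pan-neuronal markers were higher and 1 lower. Over all tested genes, 37.0% were higher and 33.9% lower by that test. All 12 microglial markers were lower, of which 10 passed the filter only through the input, and their summed level was 10.2 and 11.9 FPKM in the IP, against 70.8 and 64.5 FPKM in the input. FPKM values summed to 423985 and 419349 in the IP libraries and to 334759 and 335119 in the input libraries, and the files give no read totals.

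Both IP values of all 4 class II genes lay below the input, while the 6 class I genes lay above it, below it or overlapped it. Over both classes, the IP values lay above both input values for 3 members (H2-T22, H2-T23 and B2m), against a background of 45.0% of the 12414 tested genes. They lay below both input values for 6 members (H2-K1, Tap1 and all 4 class II genes), against a background of 41.4%. H2-D1 overlapped. limma, a linear model fitted to log2(FPKM + 1) across all genes with at least 1 FPKM in at least 2 libraries, tested 8 of the 10 members. At a Benjamini-Hochberg adjusted p under 0.05, 2 of these were higher in the IP, where the background was 37.0% of all tested genes, and 4 were lower, where the background was 33.9%. Tap1 and H2-Eb1 did not reach the filter. H2-Aa, H2-Ab1 and Cd74 reached it only through the input libraries, so the count of lower members is no support by itself. H2-K1 reached it in both input libraries and in IP 1. When all 18018 genes with a nonzero value in any library were tested without the filter, 6 of the 10 members were lower, against a background of 28.9%, and 1 was higher, against a background of 24.8%. In bulk RNA, fewer cells of a type and less RNA per cell cannot be told apart.

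**Figure D1:**
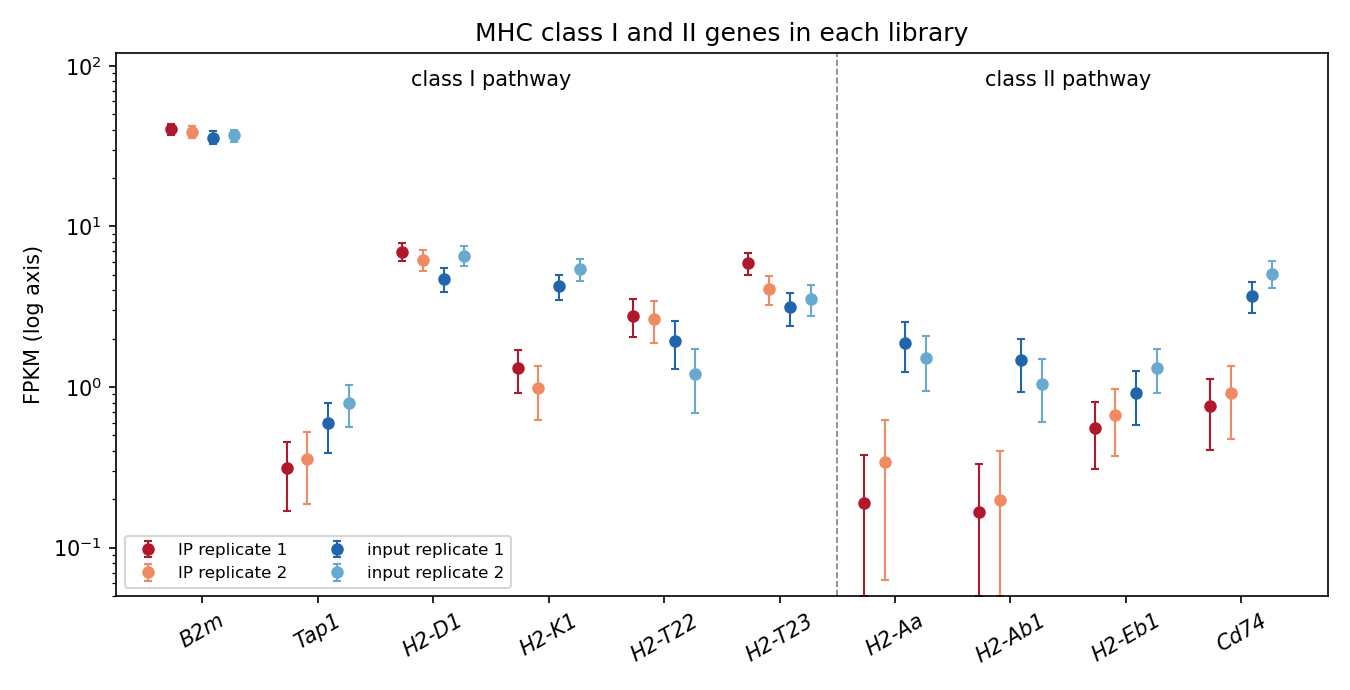
FPKM of the 10 members in each library on a log axis, IP left of input, with the authors' confidence limits as bars; limits at 0 run to the floor of the axis. The 4 class II genes lie lower in both IP libraries, while among the class I heavy chains only H2-K1 does.

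Among the class I heavy chains, H2-K1 was the 1 member that fell. It encodes the classical K heavy chain (mm10 chr17:33996012-34000333, at the centromeric end of the H2 complex). H2-K1 stood at 1.31 and 0.987 FPKM in the IP libraries, against 4.23 and 5.44 FPKM in the input libraries. The groups did not overlap, and the authors' confidence limits for single libraries also lay apart. Its means were 1.15 ± 0.228 FPKM in the IP and 4.83 ± 0.855 FPKM in the input (SD, n = 2 each), a 4.21-fold lower mean, and its limma log2 change was -1.44 (SE 0.133, adjusted p = 0.000189).

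H2-D1 encodes the classical D heavy chain (chr17:35263094-35267497), the closest functional counterpart of K. Its values were 6.97 and 6.20 FPKM in the IP libraries, against 4.71 and 6.58 FPKM in the input libraries. Here the groups overlapped, with input 2 between the IP values. The log2 change of H2-D1 was 0.20 (SE 0.143, limma adjusted p = 0.24). It came to -0.00098 (adjusted p = 0.994) without input 1 and to 0.41 (adjusted p = 0.0438) without input 2, so the call turned on which input library was kept. The ratio of H2-D1 to H2-K1 FPKM was 5.32 and 6.28 in the IP libraries, against 1.11 and 1.21 in the input libraries. K and D stood near parity in the input and apart in the IP. As a share of the FPKM of the 4 heavy chain members, H2-K1 made up 7.71% and 7.09% in the IP and 30.2% and 32.4% in the input.

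The promoters of both classical genes are shown because these sequences hold the elements known to control class I genes. The 250 bases before the RefSeq start (GRCm38.p6) are given 5′ to 3′ along the gene. They lie at chr17:34000348-34000597 on the minus strand for H2-K1 and at chr17:35262844-35263093 on the plus strand for H2-D1. Capitals mark matches on either strand to GGGGATTCC (the core of enhancer A, an NF-kappaB site), GTTTCACTT (the core of the interferon response element), GCAAC (the X1 box core), TGACG (the core of a cAMP response element, as in the X2 box) and ATTGG (the Y box, an inverted CCAAT).
H2-K1: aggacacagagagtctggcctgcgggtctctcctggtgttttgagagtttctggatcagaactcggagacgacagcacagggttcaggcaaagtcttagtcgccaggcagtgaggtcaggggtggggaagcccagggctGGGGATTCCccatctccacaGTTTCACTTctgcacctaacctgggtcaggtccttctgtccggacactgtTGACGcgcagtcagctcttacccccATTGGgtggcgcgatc
H2-D1: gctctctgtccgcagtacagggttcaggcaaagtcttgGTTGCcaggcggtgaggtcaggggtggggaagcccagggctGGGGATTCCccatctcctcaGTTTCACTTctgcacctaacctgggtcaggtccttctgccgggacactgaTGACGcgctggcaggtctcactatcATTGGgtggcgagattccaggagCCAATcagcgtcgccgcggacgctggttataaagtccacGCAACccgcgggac
Both promoters held GGGGATTCC followed by GTTTCACTT, which were present in 0.213% and 0.338% of 32851 RefSeq promoters of the same length. The short motifs are common: GCAAC was present in 29.9%, TGACG in 17.8% and ATTGG in 33.8% of those promoters. The motifs were chosen after the sequences had been read, and a match describes letters only.

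H2-T23 and H2-T22 are non-classical heavy chains of the T region. H2-T23 (chr17:36029977-36032701) encodes Qa-1, which presents signal peptides of other class I chains to the inhibitory receptor of natural killer cells. H2-T23 stood at 5.91 and 4.09 FPKM in the IP libraries, against 3.13 and 3.54 FPKM in the input libraries. Both IP values were above both input values, though the confidence limits overlapped. The SD was 1.29 FPKM in the IP and 0.286 FPKM in the input (n = 2 each), and the log2 change was 0.45 (SE 0.152, limma adjusted p = 0.0356). That call was lost without IP 1 (0.23, adjusted p = 0.12), without input 1 (0.39, adjusted p = 0.209), without input 2 (0.52, adjusted p = 0.119) and without the filter (adjusted p = 0.0952). The ratio of H2-T23 to H2-K1 FPKM was 4.52 and 4.14 in the IP, against 0.742 and 0.651 in the input.

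H2-T22 (chr17:36038409-36042702) encodes a heavy chain that binds gamma-delta T cell receptors without peptide. Its values were 2.78 and 2.65 FPKM in the IP libraries, against 1.94 and 1.20 FPKM in the input libraries. The groups did not overlap, while the confidence limits did. H2-T22 averaged 2.72 ± 0.0916 FPKM in the IP and 1.57 ± 0.522 FPKM in the input (SD, n = 2 each), a 1.73-fold higher mean. Its log2 change was 0.55 (SE 0.146, limma adjusted p = 0.0152), and was 0.52 (adjusted p = 0.054) without IP 1 and 0.34 without input 2. A second entry, H2-T9, lies on the same stretch (chr17:36038409-36042692), and it stood at 10.4 and 8.64 FPKM in the IP, against 5.49 and 6.65 FPKM in the input. Reads of this locus are divided between both entries, so the sum is given too. The sum of H2-T22 and H2-T9 was 13.2 and 11.3 FPKM in the IP libraries, against 7.43 and 7.85 FPKM in the input libraries. Fitted as 1 gene, a choice made after the values were seen, the locus was higher by a log2 change of 0.61 (SE 0.0886, limma adjusted p = 0.00115).

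The promoters of the T-region genes are shown for comparison with the classical pair, at chr17:36032702-36032951 for H2-T23 and at chr17:36042743-36042992 for H2-T22, both on the minus strand.
H2-T23: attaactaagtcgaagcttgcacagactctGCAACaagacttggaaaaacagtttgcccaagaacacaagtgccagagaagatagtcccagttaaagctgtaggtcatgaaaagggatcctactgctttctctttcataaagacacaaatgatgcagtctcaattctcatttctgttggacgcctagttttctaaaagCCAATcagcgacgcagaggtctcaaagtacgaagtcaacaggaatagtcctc
H2-T22: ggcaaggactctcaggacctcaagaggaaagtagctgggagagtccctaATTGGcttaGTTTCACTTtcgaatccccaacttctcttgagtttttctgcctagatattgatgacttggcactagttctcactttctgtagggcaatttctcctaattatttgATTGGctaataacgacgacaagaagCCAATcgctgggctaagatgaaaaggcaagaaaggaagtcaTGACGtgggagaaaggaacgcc
Neither held GGGGATTCC in this window. H2-T22 held GTTTCACTT, and H2-T23 did not. The RefSeq starts lay 14 bases from the end of the deposited H2-K1 entry, 40 from that of H2-T22 and 0 from those of H2-D1 and H2-T23.

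Class I heavy chains resemble each other, which bears on how far reads can be assigned. Of the 100-base windows of the H2-T22 transcript (the longest protein-coding one in GENCODE vM21), 14.2% were identical to a window of another gene and 77.4% matched 1 with at most 2 mismatches, mainly H2-T10 (69.1% of windows). H2-T10 itself stood at 0.915 and 0.881 FPKM in the IP, against 0.502 and 0.482 FPKM in the input. H2-T9 was not among the main matches in GENCODE, while the FPKM used the UCSC annotation. The shares for H2-T22 may thus be too low for the deposited values. For H2-T23 the shares were 7.28% and 34.2%, for H2-D1 4.64% and 12.5%, and for H2-K1 0% and 11.3%. With at most 2 mismatches, 6.58% of the H2-K1 windows matched H2-D1, and none did so identically. Windows of B2m and of the 4 class II genes matched no other gene. H2-L overlaps H2-D1 in the annotation and was listed at 0 in all 4 libraries. The sources used here do not say whether counting used strand, and genes that overlap on opposite strands cannot be told apart.

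**Figure D2:**
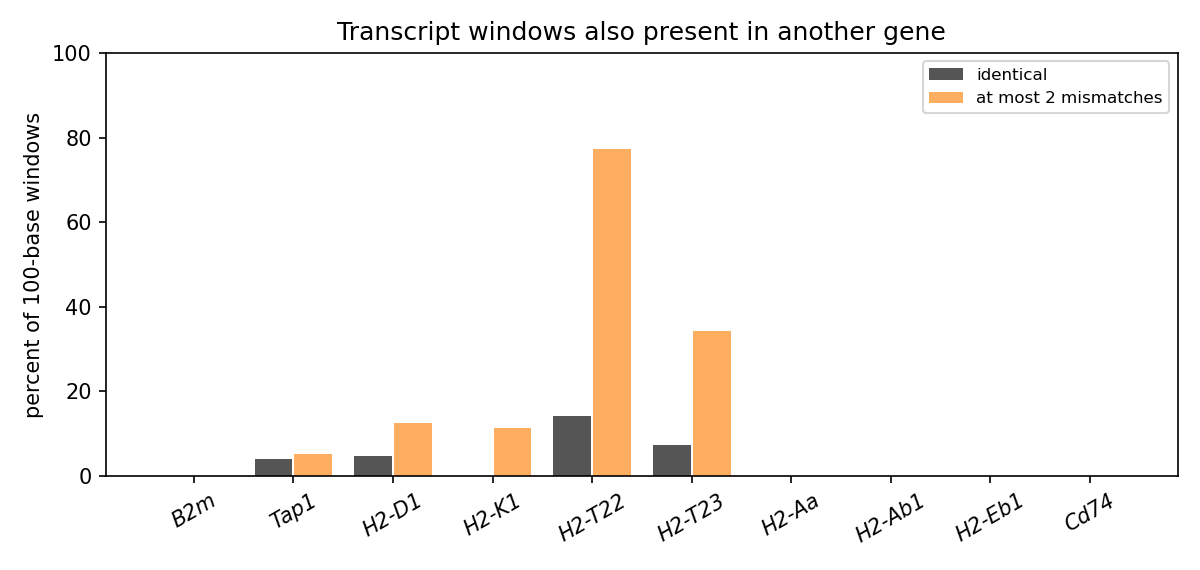
Percent of the 100-base windows of each member's transcript that match another annotated gene, identically or with at most 2 mismatches. H2-T22 reaches 77.4% with mismatches, while B2m and the class II genes stay at 0%.

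Of the partners of the heavy chains, B2m was not past the threshold, and Tap1, below the filter, had lower values in the IP. B2m (chr2:122147687-122153082), the light chain shared by all of them, was the most abundant member in FPKM, which is scaled per length. Its values were 40.3 and 38.9 FPKM in the IP libraries, against 35.7 and 36.8 FPKM in the input libraries. Both IP values lay above, by a small margin, and the log2 change was 0.12 (SE 0.0522, limma adjusted p = 0.0722), a sign that turned after rescaling and under quantile normalization. B2m FPKM stood at 2.38 and 2.79 times the summed heavy chain FPKM in the IP, against 2.55 and 2.20 times in the input. Tap1 (chr17:34187556-34197225), a subunit of the peptide transporter, had 0.311 and 0.356 FPKM in the IP, against 0.593 and 0.799 FPKM in the input. The Tap1 groups did not overlap, but the confidence limits did, and its mean was 2.08-fold lower in the IP. Below the filter, it was tested only in the run without one, where its log2 change was -0.34 (SE 0.0770, limma adjusted p = 0.0222).

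All 4 class II genes were lower in both IP libraries, with means 1.82-fold to 6.88-fold below the input. Cd74 (chr18:60803849-60812652), the invariant chain, was the most abundant of them. It had 0.763 and 0.918 FPKM in the IP libraries, against 3.70 and 5.08 FPKM in the input libraries. IP and input limits lay apart, the mean was 5.23-fold lower, and the log2 change of Cd74 was -1.54 (SE 0.139, limma adjusted p = 0.000168). Cd74 passed the filter only through the input, so the filter fixed its direction and the call is no support by itself.

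H2-Aa (chr17:34282751-34287771) encodes the alpha chain of the I-A molecule. H2-Aa had 0.190 and 0.342 FPKM in the IP libraries, against 1.89 and 1.51 FPKM in the input libraries. The mean was 6.40-fold lower, with a log2 change of -1.09 (SE 0.119, limma adjusted p = 0.000357). H2-Ab1 (chr17:34263227-34269418) encodes the I-A beta chain, which pairs with the product of H2-Aa. It had 0.166 and 0.199 FPKM in the IP libraries, against 1.46 and 1.05 FPKM in the input libraries. Its mean was 6.88-fold lower and its log2 change -0.93 (SE 0.121, limma adjusted p = 0.000751). Both I-A chains passed the filter only through the input, so the filter fixed their direction and the calls are no support by themselves. For both chains the groups and their confidence limits lay apart. The lower limit was 0 in both IP libraries for H2-Ab1 and in IP 1 for H2-Aa.

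H2-Eb1 (chr17:34305867-34316674) encodes the beta chain of the I-E molecule and had the smallest ratio between groups of the class II genes. H2-Eb1 had 0.558 and 0.670 FPKM in the IP libraries, against 0.921 and 1.32 FPKM in the input libraries. The values did not overlap, but the confidence limits did, and the mean was 1.82-fold lower in the IP. It stayed below the filter, and in the run without one its log2 change was -0.39 (SE 0.115, limma adjusted p = 0.0478). The entry for the I-E alpha chain, H2-Ea-ps, was listed at 0 in all 4 libraries. In the IP the order of the class II levels was Cd74, H2-Eb1, H2-Aa and H2-Ab1, against Cd74, H2-Aa, H2-Ab1 and H2-Eb1 in the input. The values of H2-Aa and H2-Ab1 overlapped in the IP, and those of H2-Ab1 and H2-Eb1 overlapped in the input.

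Class II promoters carry an X box and a Y box at a fixed spacing, bound by the RFX and NF-Y complexes that recruit the transactivator CIITA. The promoters of H2-Aa (chr17:34287824-34288073, minus strand) and H2-Eb1 (chr17:34305617-34305866, plus strand) are shown with the same motifs in capitals.
H2-Aa: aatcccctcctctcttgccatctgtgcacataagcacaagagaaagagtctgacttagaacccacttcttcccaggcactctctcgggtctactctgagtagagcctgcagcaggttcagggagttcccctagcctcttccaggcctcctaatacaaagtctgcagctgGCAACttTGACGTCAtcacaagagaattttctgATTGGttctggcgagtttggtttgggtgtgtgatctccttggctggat
H2-Eb1: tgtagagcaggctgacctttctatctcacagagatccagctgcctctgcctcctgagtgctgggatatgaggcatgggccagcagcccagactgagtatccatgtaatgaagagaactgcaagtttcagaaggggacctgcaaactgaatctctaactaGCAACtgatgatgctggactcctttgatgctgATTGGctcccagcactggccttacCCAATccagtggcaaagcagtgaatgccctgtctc
Both held GCAAC followed on the same strand by ATTGG 28 to 36 bases later, an arrangement found in 118 of 32851 promoters (0.359%). None of the other 6 members with a promoter in the table held it (H2-D1, H2-K1, H2-T22, H2-T23, B2m and Tap1). Here too the motifs were chosen after the sequences had been read, so the share is a description and not a test. In H2-Aa the capitals TGACGTCA are TGACG read on both strands, which overlap. The file entry of H2-Aa ends 52 bases from the RefSeq start. No promoter is shown for H2-Ab1 or Cd74.

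The summed class II level was lower in the IP, while the summed class I heavy chain level overlapped between groups. The 4 class I heavy chain members summed to 17.0 and 13.9 FPKM in the IP libraries, against 14.0 and 16.8 FPKM in the input libraries. Over all 21 listed H2 class I entries the sum was 32.2 and 27.8 FPKM in the IP, against 26.2 and 29.5 FPKM in the input. The 4 class II members summed to 1.68 and 2.13 FPKM in the IP, against 7.98 and 8.96 FPKM in the input, 4.45-fold lower on average. The ratio of class I heavy chain to class II FPKM was 10.1 and 6.54 in the IP, against 1.76 and 1.87 in the input. These sums were not tested, since 2 against 2 libraries cannot give an exact two-sided permutation p below 0.333. Within class II, Cd74 stood at 0.836 and 0.758 times the summed H2-Aa, H2-Ab1 and H2-Eb1 FPKM in the IP, against 0.867 and 1.31 times in the input.

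**Figure D3:**
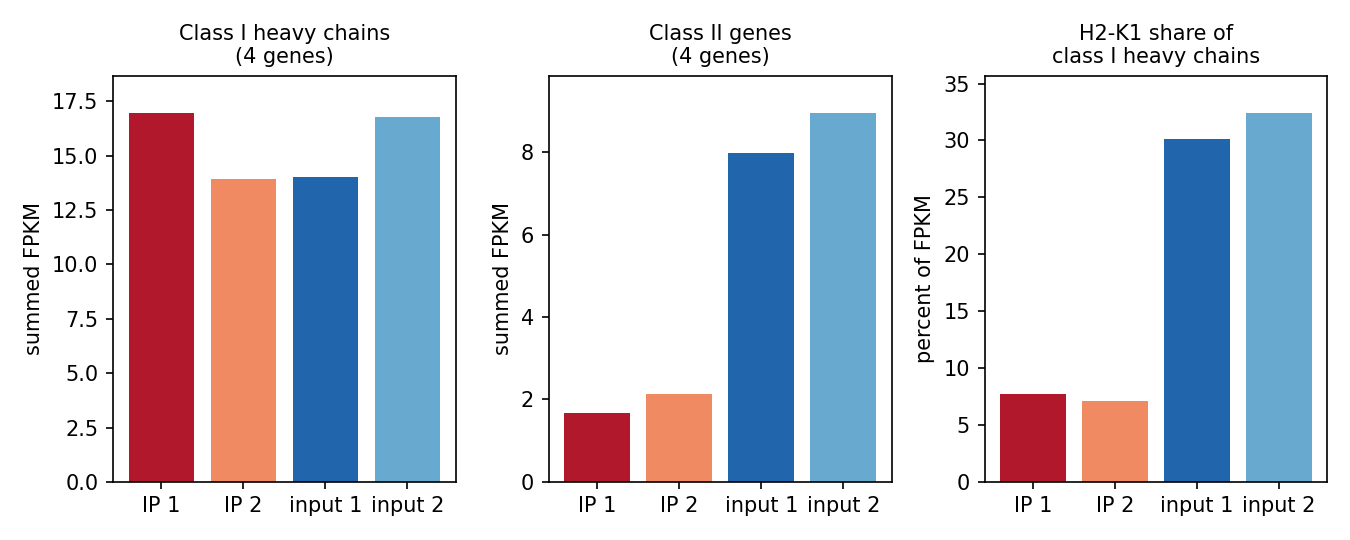
Summed FPKM of the 4 class I heavy chains and the 4 class II genes, and the percent of heavy chain FPKM from H2-K1, in each library, IP bars left of input bars. The class II sum lies between 1.68 and 2.13 FPKM in the IP and between 7.98 and 8.96 FPKM in the input, while the class I sums overlap.

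Most listed markers of glia, border macrophages and vascular cells lay below the input, while dendritic cell and T cell markers were mixed. The microglial markers given above were 6.12-fold lower in the IP by their summed means, and class II members stood at 0.164 and 0.179 of the microglial marker sum in the IP, against 0.113 and 0.139 in the input. All 7 markers of border macrophages lay below the input, summing to 0.295 and 0.644 FPKM in the IP, against 3.95 and 5.27 FPKM in the input (Cbr2 alone was tested, and passed the filter only through the input). Of 9 endothelial markers, 4 were tested and 3 were lower, all passing the filter only through the input, with sums of 3.35 and 2.95 FPKM in the IP, against 10.4 and 9.10 FPKM in the input. Dendritic cell markers summed to 3.15 and 2.66 FPKM in the IP, against 3.64 and 3.74 FPKM in the input, with Zbtb46 lower, and Flt3 higher after passing the filter only through the IP. B cell markers stayed at 0.0729 and 0.131 FPKM in the IP, against 0.311 and 0.521 FPKM in the input, and Cd79b and Ms4a1 were at 0 in all libraries. T cell markers summed to 4.22 and 3.98 FPKM in the IP, against 8.77 and 5.01 FPKM in the input, and Cd3d, Cd3g and Cd8a were at 0 in all libraries. Of the other lists, 5 of 6 astrocyte, 6 of 6 oligodendrocyte, 5 of 5 mural (3 of them past the filter only through the input) and 3 of 3 tested red blood cell markers were lower. Over all tested genes 33.9% were lower, and 41.4% had both IP values below both input values. The part of any of these in the MHC differences was not tested.

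The scale between libraries matters for the small differences among the members. The deposited FPKM left the median log2 change of all genes at 0.03. Rescaling each library to a sum of 1000000 moved that median to -0.29 and turned the split of calls from 4598 higher and 4204 lower to 2226 higher and 6690 lower. Under that scale H2-D1 had -0.10 (limma adjusted p = 0.608), H2-T22 0.41 (adjusted p = 0.104) and H2-T23 0.20 (adjusted p = 0.313), while B2m was called lower at -0.21 (adjusted p = 0.0107). Relative to the median of all genes, H2-T22 was higher by 0.52 as deposited and by 0.70 after rescaling, H2-T23 by 0.43 and 0.50, H2-D1 by 0.18 and 0.20, and B2m by 0.10 and 0.08. H2-K1 lay below the median by a log2 difference of -1.46 as deposited and -1.77 after rescaling, and Cd74 by -1.57 and -1.94. The calls of H2-K1, H2-Aa and Cd74 held under each of the 3 scalings tried. That of H2-Ab1 was lost with quantile normalization (-0.32, limma adjusted p = 0.0842). The filter, applied before scaling, let H2-Aa, H2-Ab1 and Cd74 through only by the input, so their calls are no support by themselves.

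**Figure D4:**
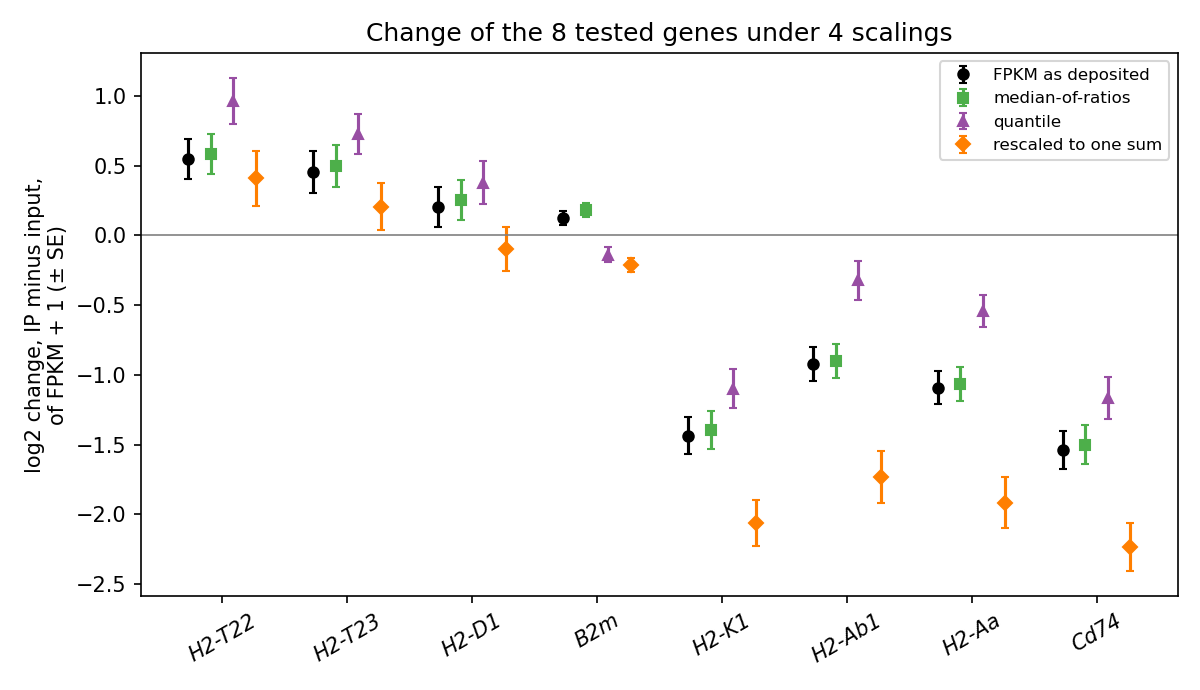
Log2 change, IP minus input, of the tested members under the deposited scale and the other scalings, with standard errors as bars. H2-K1, H2-Aa, H2-Ab1 and Cd74 stay below 0 throughout, while H2-D1 and B2m change sign.

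Of 23 other class I heavy chains listed, 4 were tested, with 2 higher and 2 lower. Over all tested genes the shares were 37.0% higher and 33.9% lower. Both lower genes, Fcgrt and H2-T24, passed the filter only through the input, so the filter fixed their direction, and H2-M3 of the higher ones passed it only through the IP. Fcgrt, the neonatal Fc receptor that recycles antibodies, had 0.559 and 0.704 FPKM in the IP, against 3.27 and 4.51 FPKM in the input (log2 change -1.57, limma adjusted p = 0.000159). H2-T24 fell by 1.13 on the log2 scale (adjusted p = 0.000388). H2-T9 and H2-M3, which presents formylated peptides, were higher at 0.57 (adjusted p = 0.00517) and 0.44 (adjusted p = 0.014). Rescaling ended both calls, at adjusted p = 0.0769 for H2-T9 and 0.0713 for H2-M3. Without input 1, H2-T9 had adjusted p = 0.0566 and H2-M3 0.0699, and H2-M3 also missed the threshold without IP 2 (0.0685) and without input 2 (0.0657).

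Of 15 listed genes that supply and load peptides for the class I members, 12 were tested. Of these, 8 were higher and 4 not past the threshold by limma, against 37.0% higher over all tested genes, with a median log2 change of 0.27. As deposited, lower calls numbered 0, also at an unadjusted limma p under 0.05. At that unadjusted threshold 1 gene was lower without the filter, with the replicate block and under each other variance model. The absence of lower calls also did not hold without IP 2. Without input 1 only 4 of these genes were called higher, and Calr (adjusted p = 0.0535) and Canx (adjusted p = 0.153) were among those lost. The proteasome activator subunits Psme2 (7.58 and 7.86 FPKM in the IP, against 3.04 and 2.25 FPKM in the input) and Psme1 had log2 changes of 1.27 and 0.91, and the immunoproteasome subunit Psmb10 had 0.97 (limma adjusted p = 0.000183, 5.38e-05 and 3.17e-05). The untested genes Psmb8, Psmb9 and Erap1 were below the filter and are named after their values were seen. Psmb9, also of the immunoproteasome, had 0.617 and 0.494 FPKM in the IP, against 1.25 and 0.754 FPKM in the input. Psmb8, another such subunit, overlapped between groups (0.845 and 0.918 FPKM in the IP, against 0.824 and 1.99 FPKM in the input). Both IP values of Erap1 lay below the input. The chaperone Hspa5 was higher at 0.37 (adjusted p = 0.0111), also lost without input 1 (0.30, adjusted p = 0.106). Hspa5 also missed the threshold under quantile normalization (0.09, adjusted p = 0.45) and on the rescaled values (0.04, adjusted p = 0.738). Tapbp, which bridges TAP to the heavy chain, had -0.20 (adjusted p = 0.0725). After rescaling, the 12 genes gave 3 higher and 4 lower, against 17.9% higher and 53.9% lower over all genes, and after quantile normalization 3 higher, against 35.3% of all genes.

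Of 13 other class II pathway genes in the files, 6 were tested, with 3 higher and 3 lower, against 37.0% higher and 33.9% lower over all genes. Ctss, the protease that trims CD74 in antigen-presenting cells, was at 0.604 and 0.768 FPKM in the IP, against 7.15 and 5.93 FPKM in the input (log2 change -2.16, limma adjusted p = 3.24e-05), and passed the filter only through the input. March1, the ligase that removes class II from the surface, fell by 0.59 on the log2 scale (adjusted p = 0.00085). The lysosomal proteases Ctsl and Ctsb, which many cell types use, were higher at 0.59 and 0.55 (adjusted p = 0.0002 and 0.000142). Among 11 tested regulators of MHC genes, 3 were higher and 5 lower, against 37.0% higher and 33.9% lower over all genes. After rescaling 1 was higher and 8 lower, against 17.9% and 53.9% of all genes. Without input 1 both counts were smaller than as deposited. Irf1, an interferon-induced activator of class I genes, passed the filter only through the input and fell by 1.18 (adjusted p = 0.000147), and the NF-Y subunits Nfya and Nfyb, which bind the ATTGG motif, fell by 0.84 and 0.56 (adjusted p = 0.000439 and 0.000257). Rfxap of the RFX complex was higher at 0.49 (adjusted p = 0.000454). The transactivators were named after their values were seen. Ciita, that of class II, was at 0.00832 and 0.00999 FPKM in the IP, against 0.142 and 0.128 FPKM in the input, and Nlrc5, that of class I, at 0.0964 and 0.0724 FPKM in the IP, against 0.0549 and 0.0364 FPKM in the input. Both were below the filter and untested.

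Interferon signalling induces H2-K1 and other class I genes in many cells. Of 19 tested genes of interferon receptors and response, 11 were lower and 8 not past the threshold by limma, against 33.9% lower over all genes, with a median log2 change of -0.31. Bst2, Isg15 and Irf8 among the 11 passed the filter only through the input. Higher calls numbered 0, also at an unadjusted limma p under 0.05, against 37.0% higher over all tested genes. After rescaling 0 were higher, also at an unadjusted limma p under 0.05, and 16 lower, against 17.9% higher and 53.9% lower over all genes. After quantile normalization 3 were higher and 7 lower, against 35.3% higher and 30.2% lower over all genes. Ifitm3 fell by 2.06 on the log2 scale, Bst2 by 1.17 and Isg15 by 1.06 (limma adjusted p = 1.77e-05, 0.00067 and 0.000401), whereas Jak1 had 0.08 (adjusted p = 0.327) and Ifngr2 0.07 (adjusted p = 0.47). Class I has been tied to synapses in mice together with PirB and complement. The 4 tested genes of that list, C1qa, C1qb, C1qc and C4b, passed the filter only through the input, so their shared direction is no result, and had log2 changes of -2.72, -2.59, -2.55 and -1.16 (adjusted p = 0.000123, 1.27e-05, 4.29e-05 and 0.000554). The first 3 of these are also in the microglial list. Pirb was at 0 in both IP libraries, against 0.037 and 0.004 FPKM in the input.

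**Figure D5:**
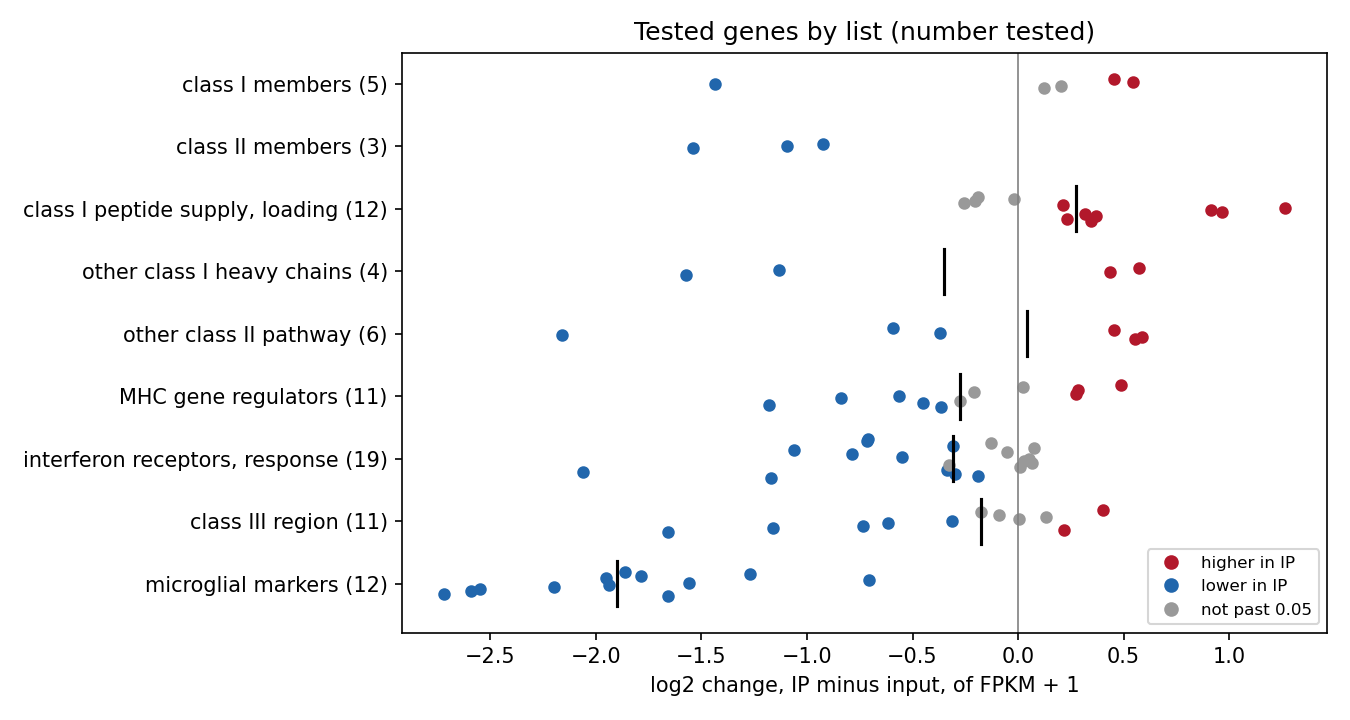
Log2 change, IP minus input, of the tested genes of each list, 1 point per gene, coloured by call, with the median of each list other than the members as a line. Of the peptide supply genes 8 lie above 0 and are called higher, and the 12 microglial markers lie below 0.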

How the data were processed

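The authors deposited Cufflinks FPKM for each gene. Per the file headers, each value comes with a status and its confidence limits. Reads were 100 bp single-end and were aligned with TopHat to mm10 with the UCSC iGenomes annotation, per the series' design text. Tool versions are not given in the sources used here, and neither is any scaling between libraries. The authors' Cuffdiff test was not used.

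Each library listed 24490 entries. The 8 entries with a failed status and 1288 small RNA entries were left out. The 12414 genes with at least 1 FPKM in at least 2 libraries were fitted as log2(FPKM + 1) with limma 3.58.1 in R 4.3.3 (trended eBayes, Benjamini-Hochberg adjustment over all genes), so fold changes of low genes are understated. The procedure was checked on simulated data. Sums and ratios were computed on FPKM. Confidence limits spanned about 20.6% to 22.9% on either side of the value (median per library) at 1 to 2 FPKM, and cover counting error only. IP and input of 1 number came from the same pool per the design text, and deviations of IP 1 and input 1 from their group means correlated at r = 0.162 over 12414 genes.

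Members and lists were chosen with earlier results of these data known. All 10 members are named. Of each other list, up to 4 genes past the threshold with the largest changes and up to 2 others with the highest FPKM could be named. Shared 100-base windows were counted in GENCODE vM21 transcripts and promoter motifs in RefSeq. Alternatives varied the pseudocount, filter, scale, variance model, replicate block and libraries.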

Additional observations from a re-analysis of the deposited data

How the results depend on the processing

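The share of all genes called higher was 37.0% as deposited, 24.8% without the filter, 46.7% at a filter of 5 FPKM and 17.9% after rescaling. The share called lower was 33.9%, 28.9%, 27.1% and 53.9% in the same order. As deposited, 2 members were higher and 4 lower in the IP. The number higher was 1 without the filter, 0 at a filter of 5 FPKM (2 members tested) and 0 after rescaling to a sum of 1000000, and ranged from 0 to 2 when 1 library was left out, with 0 without IP 1 and 1 without input 1. At an unadjusted limma p under 0.05 it was 0 after rescaling, 0 at the filter of 5 FPKM and 1 without IP 1. The number lower was 0 at the filter of 5 FPKM. In every fit that left out 1 library, the log2 changes of H2-K1, H2-Aa, H2-Ab1 and Cd74 stayed below 0. H2-Aa, H2-Ab1 and Cd74 passed the filter only through the input, so the filter fixed their direction. For class I, the number lower was 1 as deposited, 2 without the filter, 0 at the filter of 5 FPKM and 2 after rescaling. No class II member was left at the filter of 5 FPKM. The direction reversed for H2-D1 after rescaling (-0.10) and without input 1 (-0.00098), and for B2m after rescaling (-0.21) and with quantile normalization (-0.14, adjusted p = 0.0585). B2m was called higher with median-of-ratios size factors (0.18, adjusted p = 0.0184), and H2-D1 without input 2 (0.41). The cause of these changes was not tested. With the replicate block, which treats IP and input of 1 number as paired, 2 members were higher and 4 lower, and no member's call changed. Over all genes 38.2% were then higher and 35.2% lower. Depth limits the 4 class II genes and Tap1, whose IP values lie under 1 FPKM.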

Other observations

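The class III region lies between the class II chain genes and H2-D1 on chromosome 17. Its genes were counted as neighbours of the members. Of 11 tested, 2 were higher, 5 lower and 4 not past the threshold, against 37.0% higher and 33.9% lower over all genes, with a median log2 change of -0.18. After rescaling 0 were higher (also 0 at an unadjusted limma p under 0.05) and 8 lower, against 17.9% higher and 53.9% lower over all genes. The number higher was smaller than as deposited without IP 1 and without input 1. Aif1 and C4b passed the filter only through the input. Aif1, a calcium-binding protein of microglia, had 0.246 and 0.295 FPKM in the IP, against 3.36 and 2.70 FPKM in the input (log2 change -1.66, limma adjusted p = 6.34e-05). C4b, a complement component, fell by 1.16 on the log2 scale (adjusted p = 0.000554), Clic1 by 0.74 (adjusted p = 0.000417) and Ddah2 by 0.62 (adjusted p = 0.000476). Ehmt2, a histone methyltransferase, had 48.0 and 45.9 FPKM in the IP, against 47.0 and 46.7 FPKM in the input.

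The genes whose pattern over the 4 libraries lay nearest to the mean of the tested class II members were Nfia, Naa40 and Leprel2, at Euclidean distances of 0.0207, 0.0317 and 0.0355 on centred log2(FPKM + 1). Nfia had 1.02 and 1.22 FPKM in the IP, against 3.88 and 3.81 FPKM in the input. Nearest to the mean of the tested class I members were Mettl13, Plcxd2 and AI118078, at 0.0151, 0.0205 and 0.0236. That mean joins H2-K1, with a log2 change of -1.44, and the others, between 0.12 and 0.55, so it need not resemble any single member. Mettl13 had 4.74 and 4.07 FPKM in the IP, against 4.34 and 4.73 FPKM in the input. With 4 libraries, such likeness is a description only.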
